A study of Mus musculus with 6 samples.

Results

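SNARE proteins and the factors that prime vesicles for fusion were followed in pancreatic islets of mice labelled as lacking PPARβ in the pancreas. The members were taken by gene symbol: every gene starting with Stx, Vamp, Cplx, Unc13 or Rims, every Snap symbol followed by a digit, and Napa, Napb, Nsf, Cadps, Cadps2 and Doc2b. This gave 50 of the 18193 genes with a probe set of their own on the array, each represented by its brightest probe set over the 6 arrays. The symbol rule also takes in proteins that bind SNAREs without being SNAREs (the Stxbp genes) and Snap91, which encodes a clathrin assembly protein.

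Islet RNA was measured on 1-colour Affymetrix arrays, 3 from animals labelled knockout (Pdx1Cre;PPARbetafl/fl) and 3 from control littermates (PPARbetafl/fl), each array a different mouse aged 8 weeks on a mixed SV 129/C57BL/6 background. Both groups carry the floxed Ppar-beta alleles, and the controls lack the Cre transgene. The Pdx1 promoter that drives Cre is active in the whole developing pancreas, so exocrine and duct cells as well as islet cells fall under it. With 0 arrays from Cre-positive mice with intact alleles, the deletion and the Cre transgene cannot be told apart.

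Fusion of an insulin granule with the plasma membrane is driven by SNARE proteins, which zip into a bundle of helices that pulls the membranes together. In beta cells the plasma membrane provides syntaxin 1A and SNAP-25 and the granule provides VAMP2. Munc13, CAPS and RIM proteins prime docked granules, complexins clamp and promote fusion, synaptotagmins sense calcium, and the ATPase NSF with its SNAP adaptors pulls spent complexes apart. Other syntaxins and VAMPs serve the same chemistry at the ER, Golgi, endosome and autophagosome.

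The labels name the material beta-cells, while their protocol describes whole islets. Beta cell transcripts were abundant in both groups: Ins2 had log2 values of 13.71 to 13.87 in the arrays labelled knockout and 13.83 to 13.87 in the controls. The mean of 8 beta cell markers was 11.37, 11.59 and 11.72 in the arrays labelled knockout and 12.04, 11.72 and 11.91 in controls, with 6 of 8 lower. Among them the granule zinc transporter gene Slc30a8 fell by 0.82 (SE 0.12, limma adjusted p = 0.0394), while Ucn3 (-0.95 ± 0.33, adjusted p = 0.305) and Slc2a2 (-0.62 ± 0.25, adjusted p = 0.373) did not pass. The targeted gene was not lower on its brighter probe set (Ppard, 0.49 ± 0.20 on the log2 scale, SE, limma adjusted p = 0.377). Nor was it lower on its dimmer one (0.35 ± 0.11, adjusted p = 0.255). No label states which exon was removed, so the genotype rests on the labels. Exocrine RNA differed between arrays. The mean of 17 acinar markers was 8.81, 5.88 and 6.02 in arrays 1 to 3 labelled knockout, against 7.00, 10.87 and 11.14 in controls 1 to 3 (exact permutation p = 0.2, two-sided, where 3 arrays against 3 cannot go below 0.1). Of these markers 15 had the lower mean in the arrays labelled knockout and 2 the higher, Bhlha15 (0.65) and Rbpjl (0.080). The mean of 8 immune markers was 7.57 to 7.79 in the arrays labelled knockout and 6.92 to 7.10 in controls, with 8 of 8 higher. They ran from 0.023 for Lyz2 to 1.34 for Laptm5, and 1 of them, Laptm5, passed (limma adjusted p = 0.00425). The mean of 4 alpha cell markers was 9.12 to 9.22 in the arrays labelled knockout and 9.64 to 9.86 in controls, with 4 of 4 lower, and that of 6 delta and PP cell markers was 10.51 to 10.59 in the arrays labelled knockout and 11.14 to 11.32 in controls, with 6 of 6 lower. Of the delta and PP cell markers, Ghsr (-1.17, limma adjusted p = 0.00970) and Rbp4 (-0.73, adjusted p = 0.0266) passed. In whole islets, fewer cells of a type and less RNA per cell cannot be told apart. The part of these marker levels in the results below was not tested. Fits with the acinar marker mean are given beside some results as a description.

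None of the 50 genes passed the test between arrays labelled knockout and controls. With limma and Benjamini-Hochberg adjustment over all 45037 probe sets, 0 of 50 had an adjusted p under 0.05, against 0.897% of all probe sets (0.713% higher and 0.184% lower) and 1.10% of genes on their brightest probe set. The lowest adjusted p among the members was 0.151. At an unadjusted p under 0.05 there were 3 of 50 members (6%), against 12.9% of all probe sets and 14% of genes on their brightest probe set. The values of the 3 arrays labelled knockout and the 3 controls did not overlap for 9 members. This is 18%, against 19.0% of all probe sets and 21.2% of genes on their brightest probe set. The knockout side was above for 6 (10.1% of all probe sets) and below for 3 (8.85%). Counted over every probe set of these genes, 0 of 123 passed, and 9 had an unadjusted p under 0.05.

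The intervals bounded most differences within 2-fold. Differences lay between -0.37 and 0.52 on the log2 scale. The 95% interval of the difference lay inside a 2-fold change in either direction for 49 of 50 genes and inside a 1.5-fold change for 36. The exception to the first bound was Stx19, a dim probe set whose interval ran from -0.23 to 1.28. Over all 18193 genes, the interval lay inside a 2-fold change for 16429 and inside a 1.5-fold change for 11790. These intervals are per gene and are not adjusted for the number of genes. The median difference was 0.060 over the 50 members and 0.0020 over all 18193 genes, and 33 members (66%) had the higher mean in the arrays labelled knockout, against 50.4% of all genes. With the acinar marker mean of each array as a covariate, 26 members had the higher mean and the median was 0.017.

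**Figure D1:**
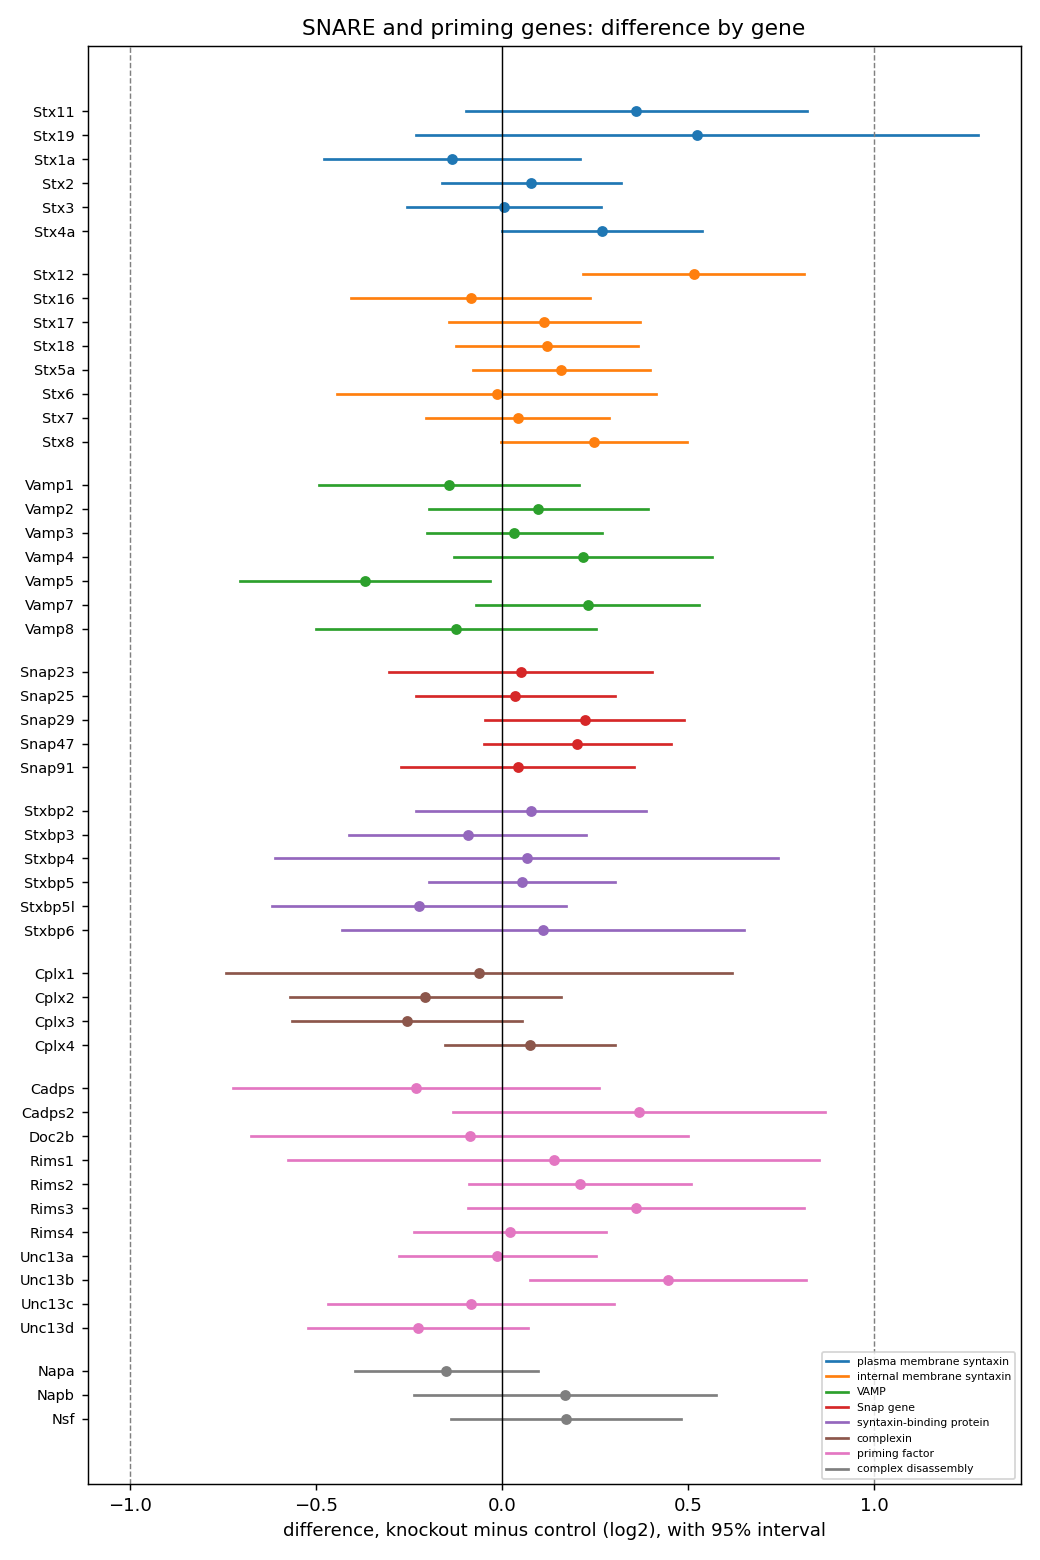
Difference between arrays labelled knockout and controls for each of the 50 genes, on the log2 scale (x axis), with its 95% interval as a line; genes are grouped by role down the page and dashed lines mark a 2-fold change in either direction. All intervals but that of Stx19 stay inside the dashed lines, and Stx12 and Unc13b lie above 0 and Vamp5 below it before adjustment over all probe sets.

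The plasma membrane syntaxins, which sit in the target membrane of secretory granules, numbered 6, and none passed. Stx1a, the syntaxin of the core insulin fusion complex, had log2 values of 7.69, 7.81 and 7.68 in arrays 1 to 3 labelled knockout, against 7.59, 8.06 and 7.93 in controls 1 to 3. The control array with the least acinar RNA, control 1, was below all 3 arrays labelled knockout and the other controls were above them. Its difference was -0.14 ± 0.15 (SE, adjusted p = 0.755), and the sign turned to 0.025 with the acinar covariate and to 0.13 without controls 2 and 3. Stx4a, whose product syntaxin 4 serves insulin release and GLUT4 vesicle fusion, had 9.18, 9.35 and 9.16 in the arrays labelled knockout and 9.04, 9.00 and 8.84 in controls. All 3 arrays labelled knockout were above all 3 controls, by a mean of 0.27 ± 0.11 (adjusted p = 0.389). Stx11, a syntaxin known for granule release by cytotoxic lymphocytes, had 6.87, 6.81 and 6.21 in the arrays labelled knockout and 6.41, 6.16 and 6.26 in controls. Knockout array 3 lay among the controls and the other arrays labelled knockout lay above them, and the difference of 0.36 ± 0.19 had an adjusted p of 0.499. The dimmer Stx11 probe set differed by -0.14 ± 0.19 with overlapping groups. Immune markers were higher in the arrays labelled knockout, and their part in the Stx11 values was not tested. Stx2 stayed between 6.54 and 6.75 over all 6 arrays and Stx3 between 10.68 and 10.87. Both encode syntaxins of the plasma membrane of many secretory cells, and their groups overlapped.

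Syntaxins of internal membranes held the gene with the smallest p. Stx12, which encodes a syntaxin of recycling endosomes (also called syntaxin 13), had log2 values of 10.40, 10.67 and 10.41 in arrays 1 to 3 labelled knockout, against 10.10, 9.96 and 9.88 in controls 1 to 3. Every array labelled knockout was above every control. The difference of 0.51 ± 0.13 (SE), a ratio of 1.43, did not pass (unadjusted p = 0.00461, adjusted p = 0.151). The second Stx12 probe set ran the same way, with 9.34, 9.62 and 9.32 in the arrays labelled knockout and 9.00, 8.77 and 8.57 in controls (0.65 ± 0.15, adjusted p = 0.136). The difference was 0.38 with the acinar covariate and 0.39 without controls 2 and 3. When the variance was modelled with an intensity trend, Stx12 passed (adjusted p = 0.0452), while its adjusted p over all alternatives ranged up to 0.529.

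Stx8, a syntaxin of late endosomes, had 10.29, 10.19 and 10.18 in the arrays labelled knockout and 9.90, 9.94 and 10.07 in controls. Its groups did not overlap either, and the difference of 0.25 ± 0.11 had an adjusted p of 0.392. It was 0.34 with the acinar covariate. Of the other 6 internal syntaxins, Stx5a of the ER to Golgi route had non-overlapping groups, 8.97 to 9.12 in the arrays labelled knockout and 8.87 to 8.92 in controls. Stx6 of the trans-Golgi network, Stx7 of late endosomes, Stx16 of the trans-Golgi network, Stx17 of autophagosomes and Stx18 of the ER had overlapping groups. Over these 5 genes the widest spread within a group was in Stx6, from 8.13 to 8.64 in controls.

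The promoters of Stx12 and Stx8 are shown because PPARβ binds DNA with its partner RXR at direct repeats of AGGTCA. Stx12 had the smallest p. Stx8 was among the 9 members with non-overlapping groups, of which Vamp5 and Stx4a also had a smaller p than Stx8. Of the members with a match, listed below, Stx8 was the only gene with non-overlapping groups. Each run gives the 250 bases before the annotated start, 5′ to 3′ on the strand of the gene, from RefSeq on GRCm38.p6. Capitals mark AGGTCA on either strand. The Stx12 window is chr4:132884459-132884708 on the minus strand and holds no match. The Stx8 window is chr11:67966208-67966457 on the plus strand and holds 1 match.
Stx12: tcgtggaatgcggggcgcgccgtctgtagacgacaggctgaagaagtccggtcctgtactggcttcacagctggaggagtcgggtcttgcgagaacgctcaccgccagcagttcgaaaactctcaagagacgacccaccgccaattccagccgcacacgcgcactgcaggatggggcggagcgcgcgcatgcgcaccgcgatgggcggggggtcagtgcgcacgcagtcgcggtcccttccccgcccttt
Stx8: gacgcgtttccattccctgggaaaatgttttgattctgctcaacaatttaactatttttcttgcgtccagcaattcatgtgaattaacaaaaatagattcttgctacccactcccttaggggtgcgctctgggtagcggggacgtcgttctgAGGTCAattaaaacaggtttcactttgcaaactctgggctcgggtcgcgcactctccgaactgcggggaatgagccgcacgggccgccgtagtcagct
AGGTCA occurred on either strand in such windows of 4 of 41 members with a listed promoter (9.76%; Stx2, Stx8, Cplx3 and Stxbp5l), and in 15.8% of the 27025 genes searched. The full repeat AGGTCANAGGTCA, which contains AGGTCA, occurred in 0 of the 41 members and in 11 of the 27025 genes (0.0407%). A match in these letters is a description of the sequence and not a binding site.

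VAMP proteins sit on the vesicle, and none of 7 passed. Vamp2, the insulin granule VAMP, had log2 values of 11.81, 11.87 and 11.62 in the arrays labelled knockout, against 11.82, 11.57 and 11.62 in controls. The groups overlapped, with a difference of 0.097 ± 0.12 (SE, adjusted p = 0.802, 95% interval -0.20 to 0.39). Vamp8, the VAMP of acinar zymogen granules that also serves newly arriving insulin granules, had 11.28, 10.95 and 10.88 in the arrays labelled knockout and 10.94, 11.24 and 11.31 in controls. The array labelled knockout with the highest acinar mean, array 1, and controls 2 and 3 were the 3 highest arrays for Vamp8, as they were for the acinar markers. Its difference of -0.12 ± 0.16 (adjusted p = 0.801) was 0.15 with the acinar covariate and 0.10 without controls 2 and 3. The part of acinar RNA in the Vamp8 values was not tested. Vamp5, described mainly in muscle, had 5.58, 5.56 and 5.36 in the arrays labelled knockout and 5.74, 5.76 and 6.11 in controls. All arrays labelled knockout were below all controls, and the difference of -0.37 ± 0.14 did not pass (unadjusted p = 0.0353, adjusted p = 0.343). Vamp7, a VAMP of late endosomes and lysosomes, differed by 0.23 ± 0.13 (adjusted p = 0.509), with 8.63 to 8.94 in the arrays labelled knockout and 8.54 to 8.70 in controls. Vamp3, the VAMP of recycling endosomes, was within 11.03 to 11.16 on all 6 arrays. Vamp1 (5.40 to 5.89 on all arrays) and Vamp4 (10.04 to 10.56) also had overlapping groups.

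Snap25, which supplies a pair of helices to the insulin fusion complex, had overlapping groups. It had log2 values of 11.52, 11.60 and 11.71 in the arrays labelled knockout and 11.69, 11.57 and 11.48 in controls. The difference of 0.036 ± 0.11 (SE, adjusted p = 0.932) had a 95% interval of -0.23 to 0.30, and its sign turned in several alternatives. Snap47, a SNAP-25 relative, had 11.50, 11.57 and 11.44 in the arrays labelled knockout, against 11.35, 11.36 and 11.19 in controls. These groups did not overlap, and the difference of 0.20 ± 0.11 had an adjusted p of 0.489. Snap29, which acts in autophagosome and endosome fusion, had 7.99, 7.99 and 7.80 in the arrays labelled knockout and 7.63, 7.67 and 7.81 in controls. Only control 3 reached the lowest array labelled knockout, and the difference of 0.22 ± 0.11 had an adjusted p of 0.475. Snap23, the widely expressed relative of SNAP-25, ranged from 10.69 to 11.14 in the arrays labelled knockout and from 10.83 to 11.00 in controls. Snap91 ranged from 7.12 to 7.39 in the arrays labelled knockout and from 7.03 to 7.36 in controls.

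**Figure D2:**
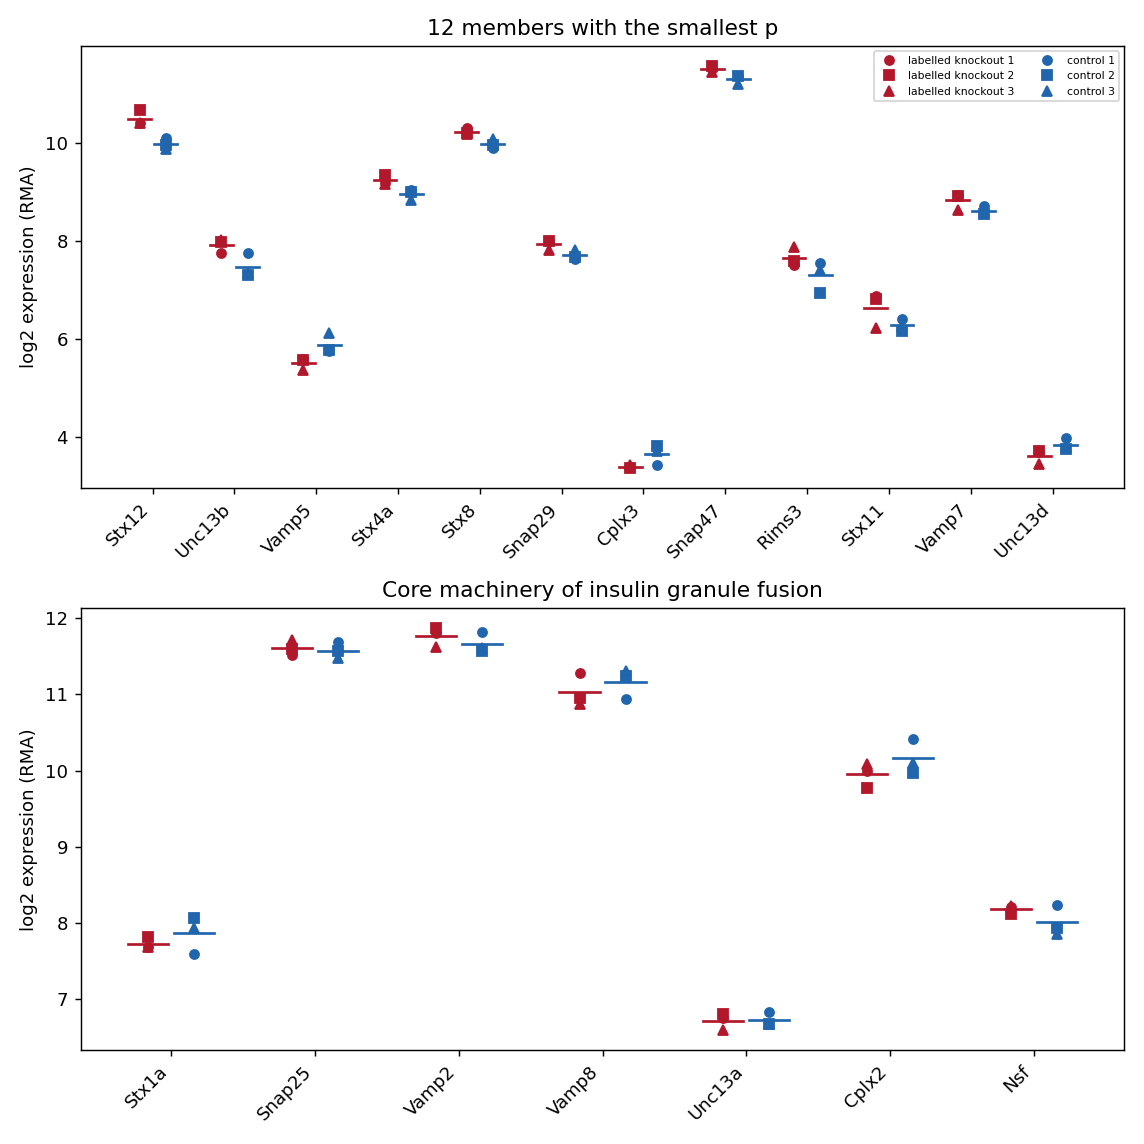
Log2 expression (RMA) of each array for the 12 members with the smallest p (upper panel) and for 7 core genes of insulin granule fusion (lower panel); red symbols are arrays labelled knockout, blue symbols controls, and horizontal lines the mean of 3 arrays. Stx12, Stx4a, Stx8, Snap47, Vamp5 and Unc13d have groups that do not overlap, while the groups of all 7 core genes overlap.

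The 6 syntaxin-binding genes had overlapping groups throughout. Stxbp2, which encodes Munc18-2 of immune and epithelial secretion, ranged from 9.31 to 9.54 in the arrays labelled knockout and from 9.14 to 9.47 in controls. Stxbp3, which encodes the syntaxin 4 partner Munc18c, ranged from 10.19 to 10.29 in the arrays labelled knockout and from 10.08 to 10.46 in controls. Stxbp5 and Stxbp5l encode tomosyns, which occupy syntaxin and hold back fusion. Stxbp5 lay between 9.74 and 9.93 in the arrays labelled knockout and 9.75 and 9.86 in controls, and Stxbp5l between 7.90 and 8.41 in the arrays labelled knockout and 8.24 and 8.55 in controls. Stxbp6 encodes amisyn, a further syntaxin-binding inhibitor, and was scattered among controls (7.26 to 8.16) more than among the arrays labelled knockout (7.67 to 7.92). Stxbp4 had the widest range within a group of all members, 5.49 to 6.64 in controls, against 5.99 to 6.39 in the arrays labelled knockout.

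Complexins bind the assembled SNARE bundle, and none of 4 passed. Cplx2 had log2 values of 10.00, 9.78 and 10.08 in the arrays labelled knockout and 10.41, 9.97 and 10.10 in controls. Control 1 was highest, the other arrays overlapped, and the difference was -0.21 ± 0.15 (SE, adjusted p = 0.633). Without controls 2 and 3 it was -0.46. Cplx1 was more variable between animals than between groups, at 4.95 to 6.07 in the arrays labelled knockout and 5.29 to 5.82 in controls. Cplx3, a complexin of retinal ribbon synapses, was dim, with 3.38, 3.36 and 3.42 in the arrays labelled knockout, against 3.41, 3.81 and 3.71 in controls (-0.26 ± 0.13, adjusted p = 0.477). Cplx4, the other retinal complexin, was also dim, at 4.30 to 4.38 in the arrays labelled knockout and 4.23 to 4.28 in controls. Its groups did not overlap, and the gap between them was smaller than the range within either.

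Priming factors were the largest class, with 11 genes, and none passed. Unc13b, which encodes Munc13-2, had log2 values of 7.75, 7.98 and 8.02 in the arrays labelled knockout, against 7.76, 7.31 and 7.34 in controls. Control 1 matched the lowest array labelled knockout, while controls 2 and 3 lay below all of them. The difference was 0.45 ± 0.16 (SE, unadjusted p = 0.0251, adjusted p = 0.307), and 0.17 with the acinar covariate and 0.16 without controls 2 and 3. The dimmer Unc13b probe set differed by -0.11 ± 0.18 (adjusted p = 0.841). Unc13a, which encodes the Munc13-1 that primes insulin granules, had 6.75, 6.80 and 6.59 in the arrays labelled knockout and 6.83, 6.67 and 6.68 in controls. That difference was -0.013 ± 0.11 (adjusted p = 0.976, 95% interval -0.28 to 0.25), and it was 0.040 after median centring. Unc13d, the Munc13-4 of immune granules, was dim and lower in each array labelled knockout (3.68, 3.71 and 3.44) than in each control (3.97, 3.75 and 3.78), by a mean of -0.23 ± 0.13 (adjusted p = 0.514).

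Among RIM proteins, RIM1 and RIM2 tether priming factors to Rab3 and to calcium channels. Rims3 had 7.50, 7.59 and 7.87 in the arrays labelled knockout and 7.54, 6.93 and 7.41 in controls. Control 1 again lay within the range of the arrays labelled knockout, and the difference of 0.36 ± 0.19 (SE, adjusted p = 0.491) was 0.13 with the acinar covariate. Rims2, the main RIM of beta cells, ranged from 7.77 to 8.08 in the arrays labelled knockout and from 7.60 to 7.82 in controls. The CAPS genes also overlapped between groups. Cadps was at 8.64 to 8.77 in the arrays labelled knockout and spread from 8.51 to 9.34 in controls. Its difference of -0.23 was -0.52 with the acinar covariate and -0.62 without controls 2 and 3. In each of these fits it was the largest among the 50 members, in either direction. Cadps2 was at 8.18 to 8.58 in the arrays labelled knockout and 7.61 to 8.35 in controls. Unc13c, Rims1, Rims4 and Doc2b, a calcium-binding partner of Munc13, were dim, with means over 6 arrays under log2 5. An RMA value carries no detection call, so such a level may be background. In all, 8 members fell under that level and 42 did not.

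Genes that take SNARE complexes apart did not pass either. Nsf had log2 values of 8.21, 8.12 and 8.22 in the arrays labelled knockout, against 8.24, 7.94 and 7.86 in controls. Control 1 lay just above the arrays labelled knockout and the other controls lay below them. The difference was 0.17 ± 0.13 (SE, adjusted p = 0.643), and -0.055 without controls 2 and 3. Napa, which encodes the adaptor α-SNAP, was at 8.40 to 8.52 in the arrays labelled knockout and 8.52 to 8.68 in controls. Its groups met without overlapping. Napb, the neural adaptor β-SNAP, was at 6.83 to 7.36 in the arrays labelled knockout and 6.90 to 7.13 in controls.

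The spread between animals was as large as many of the differences. For 25 of 50 members the difference was smaller than the pooled SD of the groups. The median range over 3 arrays was 0.23 in the arrays labelled knockout and 0.25 in controls, and 3 members (Stxbp4, Cplx1 and Rims1) ranged over more than 1 log2 unit within a group. Of 38 members with several probe sets, all probe sets differed in the same direction for 21 and in both directions for 17. With the acinar covariate 39 members kept the sign of their difference and 11 did not, and without controls 2 and 3 the counts were 40 and 10. None of the 50 passed in either fit.

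**Figure D3:**
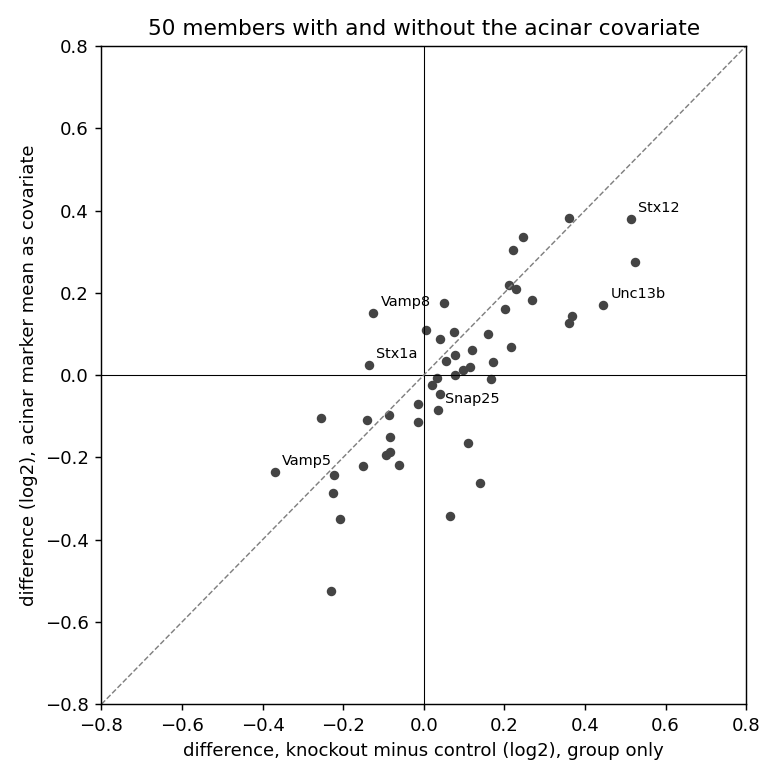
Difference between arrays labelled knockout and controls for the 50 members, on the log2 scale, from the fit with group alone (x axis) and from the fit with the acinar marker mean of each array as a covariate (y axis); the dashed line marks equal values. Unc13b lies below the line (0.45 against 0.17), and Stx1a and Vamp8 pass from below 0 to above 0.

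A few genes that work beside these SNAREs held larger differences. Of 66 measured genes in 3 lists, 2 passed as higher and 0 as lower at adjusted p under 0.05. The mean was higher for 41 of the 66 (62.1%, against 50.4% of all genes) and lower for 25. By the same test 155 of 18193 genes passed as higher and 45 as lower on their brightest probe set, 1.10% in all. The median difference of the 66 genes was 0.068, against 0.060 over the 50 members and 0.0020 over all genes. The largest differences in the lists lay among the Rab effectors and calcium sensors. None of 18 further SNAREs and Sec1/Munc18-type proteins passed, with 16 of 18 means higher and a median of 0.15. In the list of tethers, active zone proteins and Rab effectors, 1 of 32 passed, with a median of 0.0093. Among synaptotagmins 1 of 16 passed, with a median of 0.017.

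Rph3a encodes rabphilin, which binds Rab3 and Rab27 on secretory vesicles and also SNAP-25. It had log2 values of 6.12, 7.37 and 7.28 in arrays 1 to 3 labelled knockout, against 4.19, 4.37 and 4.35 in controls 1 to 3. The lowest array labelled knockout was well above the highest control. Rph3a rose by 2.62 ± 0.32 (SE, adjusted p = 0.0196), a ratio of 6.16 against a dim control level. Its second probe set rose by 2.19 ± 0.22 (adjusted p = 0.00863). The call on the brighter probe set was lost without control 2 (adjusted p = 0.0667), control 3 (0.0993), knockout 2 (0.0798) or knockout 3 (0.0803), with the acinar covariate (2.30, adjusted p = 0.152) and without controls 2 and 3 (2.74, adjusted p = 0.176), while its difference stayed between 2.30 and 3.03 in all alternatives.

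Rab3c, one of the Rab3 GTPases that RIM and rabphilin bind, was also higher in every array labelled knockout. Its brightest probe set had 8.32, 8.64 and 8.74 in the arrays labelled knockout, against 7.38, 6.00 and 6.36 in controls. The difference of 1.99 ± 0.34 just missed the threshold (adjusted p = 0.0593). Another probe set, chosen after its values were seen, passed at 1.69 ± 0.21 (adjusted p = 0.0191). Control 1 was the highest control, and without it the brightest probe set passed at 2.39 (adjusted p = 0.00579). With the acinar covariate the difference was 1.33 (adjusted p = 0.152) and without controls 2 and 3 it was 1.19.

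The synaptotagmin gene Syt10 had the largest difference in these lists. It had 7.64, 7.75 and 8.30 in the arrays labelled knockout and 3.26, 3.56 and 3.07 in controls, and its rise of 4.60 ± 0.21 against a dim control level (SE, adjusted p = 6.07e-04) passed in all 14 alternatives. Syt4, a synaptotagmin of secretory granules and Golgi membranes, had 11.33, 11.55 and 11.28 in the arrays labelled knockout and 10.90, 11.14 and 10.67 in controls. Its groups did not overlap, and the difference of 0.49 ± 0.15 did not pass (adjusted p = 0.255). Bet1, a SNARE of ER to Golgi transport, had 10.13, 10.25 and 9.82 in the arrays labelled knockout and 9.80, 9.59 and 9.42 in controls (0.47 ± 0.16, adjusted p = 0.289). Scfd2, of the Sec1 family, had 7.21, 7.56 and 7.52 in the arrays labelled knockout and 7.20, 6.86 and 7.07 in controls (0.39 ± 0.15, adjusted p = 0.338). On these probe sets of Bet1 and Scfd2 the lowest array labelled knockout lay just above the highest control. A second Scfd2 probe set, nearly as bright, differed by -0.10 ± 0.34 with overlapping groups. The second probe sets of Syt4 and Bet1 differed by 0.39 and 0.25. The difference between the share of calls in these lists and among the 50 SNARE and priming genes was not tested.

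**Figure D4:**
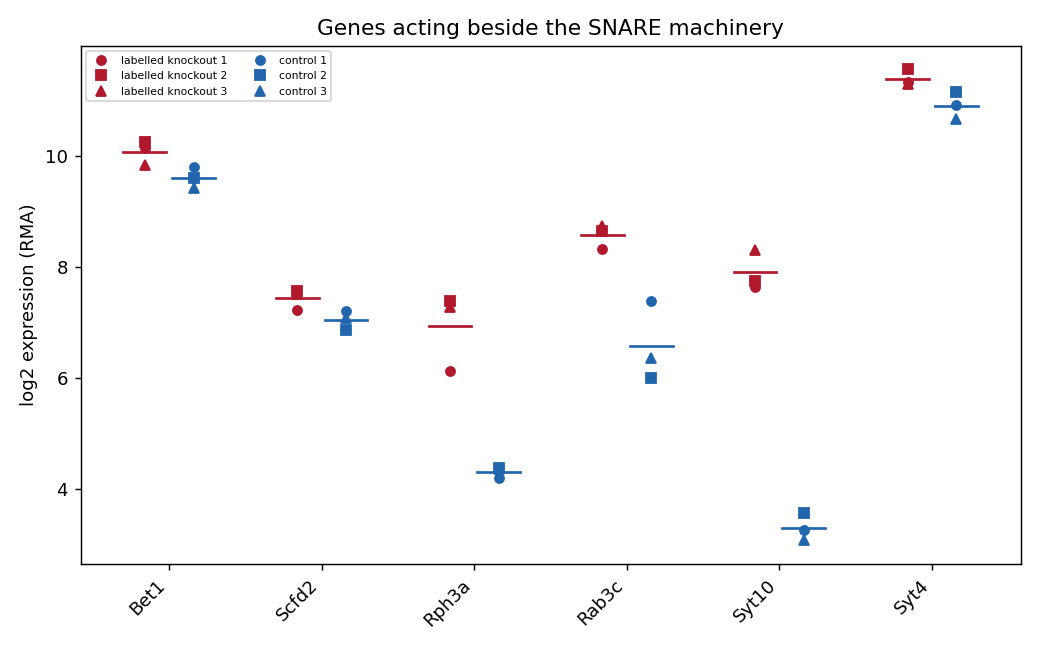
Log2 expression (RMA) of each array for 6 genes that act beside the SNARE and priming genes; red symbols are arrays labelled knockout, blue symbols controls, and horizontal lines the mean of 3 arrays. Rph3a, Rab3c and Syt10 show wide gaps between the groups (differences of 2.62, 1.99 and 4.60), while Bet1, Scfd2 and Syt4 differ by less than 0.5.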

How the data were processed

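Islet RNA of 6 mice was measured on 1-colour arrays, and each deposited value is a probe set's expression on the log2 scale. RMA, which corrects background, normalizes quantiles and summarises probes, is named without a version in the submitters' processing notes. The table held 45101 probe sets, of which 64 manufacturer controls were left out. The platform annotation supplied gene names: 34945 probe sets had 1 symbol, 932 several and 9160 none listed. Depth has no counterpart on arrays, and 3 arrays a group limit the precision.

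The test was limma (version 3.58.1, R 4.3.3; lmFit then eBayes with group alone, two-sided, Benjamini-Hochberg over 45037 probe sets, called under adjusted p 0.05), a step tested on simulated data. Differences are arrays labelled knockout minus controls, and group spread is over animals. Members, lists and alternatives were chosen with earlier results of these data known. Named genes were the 12 members with the smallest p, 7 core genes, called genes and the 2 smallest p of each pathway list, and Ppard. Alternatives were leaving out arrays, the replicate block, acinar covariate, renormalization, a floor on dim probe sets, an intensity trend and all probe sets of a gene. Promoters came from RefSeq, with 1 chromosome not searched. A further core gene is not reported here. Scanner files and scan dates were not used here.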

Additional observations from a re-analysis of the deposited data

How the results depend on the processing

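None of the 50 members passed in any alternative but the intensity trend, where 1 (Stx12) did. The count of all called probe sets was 404, and 152 to 783 with 1 array left out, 246 with the replicate block, 125 with the acinar covariate, 54 without controls 2 and 3 and 887 with the trend. Of the 66 pathway genes 2 passed, 1 to 3 with 1 array left out, 1 with the acinar covariate and 1 without controls 2 and 3. The correlations of same-numbered deviations were -0.054, 0.14 and 0.0045 for replicates 1 to 3, and only that of replicate 2 was above 0.1. These values do not settle whether the replicate numbers pair the arrays. The block kept 0 members and 2 pathway genes called. Sign changes occurred in uncalled differences, and some values were not small after the change. Stxbp4 went from 0.066 to -0.34 with the acinar covariate and to -0.47 without controls 2 and 3. Stxbp6 went from 0.11 to -0.17 and -0.39 in these fits, and Rims1 from 0.14 to -0.26 and -0.15. The named genes changed by less. Stx1a was 0.025 with the acinar covariate and 0.13 without controls 2 and 3. Snap25 ranged from -0.015 to 0.091 with 1 array left out (-0.014 without control 3, -0.015 without knockout 3) and was -0.084 with the covariate and -0.075 without controls 2 and 3. Vamp8 was 0.15 with the covariate and 0.10 without controls 2 and 3, where Vamp2 was -0.053 and Nsf -0.055. Unc13a ranged from -0.057 to 0.047 with 1 array left out (0.038 without control 1, 0.047 without knockout 3) and was 0.040 after median centring. The cause was not tested. The fit without controls 2 and 3 rests on a single control, assumed to vary like the arrays labelled knockout.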

Other observations

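The Rab27 GTPase gene Rab27b, chosen after its values were seen, was dim and lower in every array labelled knockout. Its brightest probe set had log2 values of 4.23, 4.28 and 4.41 in the arrays labelled knockout and 5.46, 5.13 and 4.74 in controls (-0.80 ± 0.19, SE, limma adjusted p = 0.140), and the next brightest differed by -0.71 ± 0.13 (adjusted p = 0.0766).

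Dimmer probe sets of some members differed by more than the brightest one, none past the threshold. These too were chosen after their values were seen. A second probe set of Snap23 had 9.44, 9.48 and 9.46 in the arrays labelled knockout and 9.01, 9.09 and 8.93 in controls (0.45 ± 0.10, adjusted p = 0.121), while its brightest probe set differed by 0.050. The second probe set of Stx5a had 6.87, 7.15 and 6.77 in the arrays labelled knockout and 6.65, 6.28 and 6.03 in controls (0.61 ± 0.19, adjusted p = 0.246). The 6 probe sets of Stx6 differed by -0.47 to 0.33.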
